A study of Mus musculus with 4 samples.

Results

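The interleukin-1 (IL-1) family genes described here number 10 of the 19938 genes that the arrays measured through a probe set of 1 gene. They were chosen by gene symbol, with earlier results of these data known, and each is read by 1 probe set. They comprise 3 ligands (Il1a, Il1b and Il18), 2 soluble inhibitors (Il1rn and Il18bp), 3 receptor chains (Il1rap, Il1rl2 and Il1r2) and 2 cytoplasmic adaptors (Myd88 and Irak2). The main receptor gene Il1r1 was not analysed here.

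The cells were macrophages grown from C57BL/6N mouse bone marrow in 10 ng/mL macrophage colony-stimulating factor (M-CSF) and harvested on day 9. The M1 groups received 10 ng/mL interferon-γ for 48 h and the M2 groups 20 ng/mL interleukin-4 for 48 h. Within each phenotype, 1 group was given vehicle and 1 group 10 ng/mL IL-1α for 24 h, and each of the 4 groups was hybridised to 1 array. The labels do not say whether IL-1α overlapped the polarising period, or whether the arrays came from separate cultures or mice. No unpolarised culture was analysed here, so a difference between M1 and M2 cannot be assigned to interferon-γ or to interleukin-4.

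IL-1α and IL-1β signal through the same receptor, in which the ligand-binding chain IL-1R1 pairs with the accessory chain encoded by Il1rap. The joined intracellular domains recruit the adaptor MyD88, which assembles IRAK kinases and leads to activation of NF-κB and MAP kinases. The system is held in check by a receptor antagonist that occupies IL-1R1 without signalling, by a decoy receptor, and, for IL-18, by a soluble binding protein. In macrophages, Il1a and Il1b are inducible genes whose products are made without a conventional secretion signal, and IL-1β and IL-18 are cut to their active forms by caspase-1.

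All values are RMA log2 signals, a normalised brightness on which 1 unit is a 2-fold difference. With 1 array per group no level has a standard deviation. The rule for calling a difference between 2 arrays asked for at least 2-fold, and for a reading on at least 1 of them at or over a floor of 7.62, which is the median reading when every gene and array is pooled. A reading under this floor was not shown to be above background. Of the 10 genes, 9 reached the floor on at least 1 array, and 5 reached it on all 4 (Il1rn, Il1rap, Il18bp, Myd88 and Irak2). Each array gives the RNA of many cells together, so fewer cells of a type and less RNA per cell cannot be told apart.

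The labelled identities were checked first. All 11 measured macrophage markers reached the floor, 10 of them on all 4 arrays, and Aif1 was the exception, reading 7.05 and 6.99 on the M2 arrays. With vehicle, 3 of the 11 were lower in M2 by 2-fold or more, Aif1, Fcgr1 (13.04 in M1 and 9.99 in M2) and Cd14 (11.94 and 9.61). The 7 measured M1 state genes had a mean level of 12.15 on the M1 vehicle array and 8.17 on the M2 vehicle array. Of these, 6 were lower in M2 by 2-fold or more, and Ciita (9.28 and 9.16) was not. Nos2 and Cxcl9 reached the floor only in M1, so their direction follows from the filter. The 8 M2 state genes had means of 7.02 and 12.62, the first under the floor. Of the 8, 2 (Mrc1 and Pparg) reached the floor on all 4 arrays. The others reached it only in M2, so their direction follows from the filter. Of markers of other cells, 6 of 10 neutrophil, 4 of 9 dendritic cell, 1 of 9 mast cell, 2 of 10 lymphocyte and 5 of 11 stromal and endothelial genes reached the floor on any array. The neutrophil list had a mean of 6.59 on the M1 vehicle array and 7.52 on the M2 vehicle array, both under the floor. Its 6 genes that reached the floor did so only in M2, so their higher reading there follows from the filter. The median difference with vehicle was 1.19, and 4 of them (Ngp, Mmp8, S100a8 and Ltf) differed by 2-fold or more. These sizes use M1 readings under the floor, and Mmp8 (7.67), S100a8 (7.81) and Ltf (8.04) lay close to it in M2 with vehicle. Ngp, a neutrophil granule gene, read 7.41 in M1 and 9.92 in M2, whereas Ly6g, the defining surface marker, was under the floor on all 4 arrays. The dendritic cell list had means of 7.55 and 6.77, and 3 of its 4 genes at the floor were lower in M2 with vehicle by 2-fold or more. Clec9a read 9.97 in M1 and 5.62 in M2, Xcr1 8.44 and 6.49, and Ccr7 9.29 and 7.53. These 3 reached the floor only in M1, and Zbtb46 (7.46 and 7.94) reached it only in M2. The part of such cells in the results below was not tested.

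**Figure D1:**
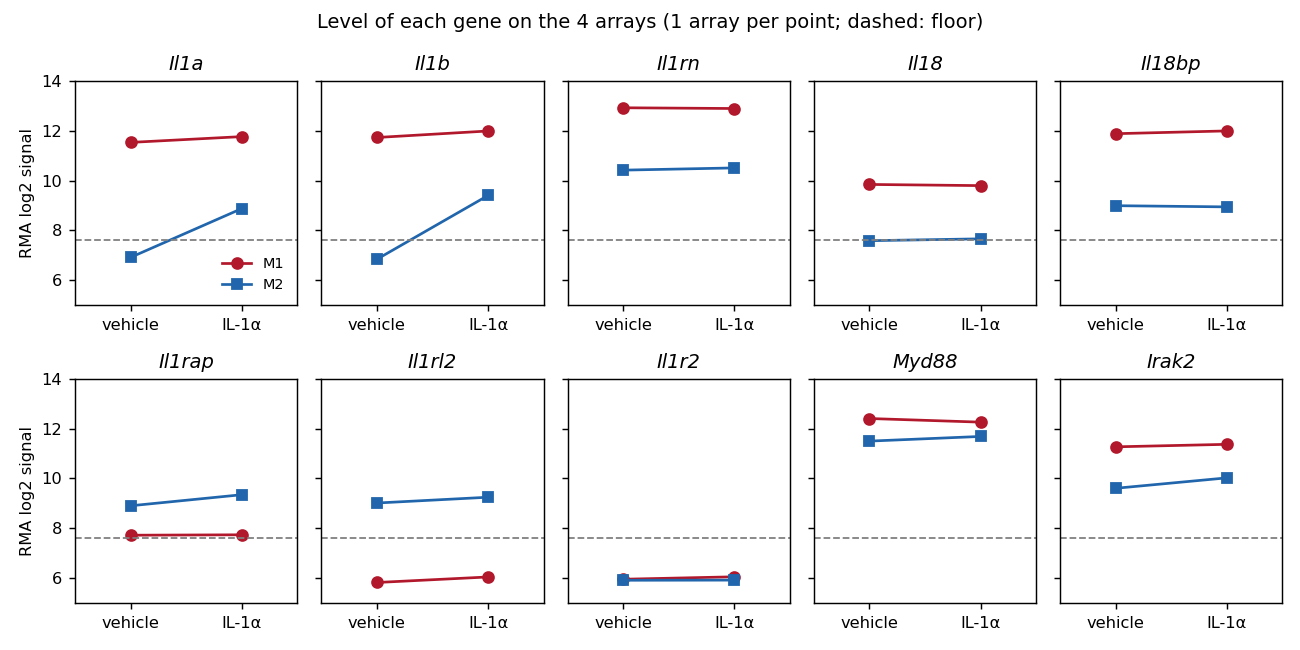
RMA log2 signal of each of the 10 genes with vehicle and with IL-1α, in M1 (circles) and M2 (squares), 1 array per point, with the floor of 7.62 as a dashed line. The M2 lines of Il1a and Il1b climb from below the floor to 8.88 and 9.41, Il1rap and Il1rl2 have M2 above M1, and Il1r2 lies under the floor on all 4 arrays.

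With vehicle, M2 macrophages differed from M1 in most of these genes, and in opposite directions for the ligands and for the receptor chains Il1rap and Il1rl2. Among the 9 genes at the floor, M2 was lower by 2-fold or more in 6 and higher in 2. Across all 10489 genes tested in this comparison, 6.83% were lower and 7.03% were higher by the same rule. All 3 ligands, both inhibitors and the adaptor Irak2 were lower, and the receptor chains Il1rap and Il1rl2 were higher. The median difference of the 9 genes was -2.26, beside 0.01 over all genes tested. Because the genes were chosen with earlier results known, a share above that of all genes, here and below, is no independent support.

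Il1b, which encodes the secreted inflammatory cytokine IL-1β, read 11.73 in M1 with vehicle, 11.99 in M1 with IL-1α, 6.85 in M2 with vehicle and 9.41 in M2 with IL-1α. Both M1 arrays were above both M2 arrays, and only M2 with vehicle lay under the floor. The M2 minus M1 difference was -4.89 (29.6-fold) with vehicle, which ranked 41 from the lowest of the 10489 genes. With the M2 reading raised to the floor the difference was -4.12 (17.3-fold).

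Il1a, which encodes IL-1α, the cytokine that was also added to the treated cultures, followed the same order of arrays. It read 11.54 and 11.77 in M1 with vehicle and IL-1α, and 6.92 and 8.88 in M2. The difference with vehicle was -4.61 (24.5-fold, rank 49 from the lowest), or -3.92 (15.1-fold) with the M2 reading raised to the floor. The protein added was not measured by the array, which reads only the cells' own transcripts.

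Il18, which encodes the caspase-1-dependent cytokine IL-18, read 9.85 and 9.80 in M1 and 7.59 and 7.66 in M2, each pair given as vehicle and then IL-1α. The M2 values lay at the floor, and M2 with vehicle lay just below it. The difference with vehicle was -2.26 (4.79-fold).

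The soluble inhibitors were lower in M2 together with the ligands. Il1rn, which encodes the IL-1 receptor antagonist, read 12.93 and 12.90 in M1 and 10.42 and 10.51 in M2, a difference of -2.50 (5.67-fold) with vehicle. It stayed well above the floor on all 4 arrays, and its M1 vehicle reading was 1.48 below the brightest probe set of that array, so saturation there was not tested. Il18bp, which encodes the binding protein that neutralises IL-18 and is a known interferon-γ target, read 11.89 and 12.00 in M1 and 9.00 and 8.95 in M2. Its difference was -2.89 (7.41-fold), larger than that of Il18 itself by 0.63 log2 units.

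The receptor chains Il1rl2 and Il1rap went the other way. Il1rl2, which encodes the ligand-binding chain of the IL-36 receptor, read 5.82 and 6.04 in M1 and 9.01 and 9.24 in M2. It lay under the floor on both M1 arrays and above it on both M2 arrays, so its higher reading in M2 follows from the filter. The difference with vehicle was 3.19 (9.13-fold) as read and 1.39 (2.63-fold) with the M1 reading raised to the floor. Il1rap, the accessory chain shared by the receptors for IL-1, IL-33 and IL-36, read 7.72 and 7.73 in M1, just above the floor, and 8.90 and 9.34 in M2. Its difference was 1.18 (2.27-fold) with vehicle. Its single probe set gives 1 value per array, so membrane and soluble forms of the protein were not told apart.

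Il1r2, the decoy receptor that binds IL-1 without signalling, read 5.95 and 6.05 in M1 and 5.91 and 5.92 in M2. All 4 readings were under the floor, so it entered no comparison. They say only that no signal above the floor was seen.

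The adaptors were both lower in M2, Irak2 past 2-fold and Myd88 not. Irak2, a kinase-like protein that sustains signalling from MyD88, read 11.27 and 11.37 in M1 and 9.60 and 10.02 in M2, a difference of -1.66 (3.17-fold) with vehicle. Myd88, the adaptor common to the IL-1 family and most Toll-like receptors, read 12.40 and 12.26 in M1 and 11.50 and 11.68 in M2. Its difference of -0.91 (1.88-fold) did not reach 2-fold. It passed only under a 1.5-fold threshold.

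A limma fit gave the only test of the phenotype difference. It took the 4 arrays together, with phenotype and treatment as additive terms and 1 residual degree of freedom per gene. The residual comes from the response difference, so the SE carries array noise and unequal responses alike, and it measures no spread between cultures. With Benjamini-Hochberg adjustment over 10625 genes, limma called 2 of the 9 genes higher in M2 and 7 lower. Of all genes fitted, 33.2% were called higher and 29.3% lower, so a call alone sets these genes little apart. The effects were -2.44 ± 0.06 (SE) for Il1rn, -2.97 ± 0.07 for Il18bp, -2.20 ± 0.09 for Il18 and -1.51 ± 0.08 for Irak2, with limma adjusted p from 1.3e-11 to 1.65e-08. Il1rl2 was at 3.20 ± 0.10. It entered the fit only through its M2 readings, so its direction follows from the filter and its call is no support. Il1rap (1.40 ± 0.11) and Myd88 (-0.74 ± 0.07) had limma adjusted p of 5.56e-07 and 3.15e-06. The fit took readings under the floor as deposited, in M1 for Il1rl2 and in M2 with vehicle for Il1a, Il1b and Il18. For Il1a (-3.75 ± 0.27) and Il1b (-3.74 ± 0.35) the limma adjusted p was 2.11e-07 and 2.33e-06. These 2 calls were lost when the variance was estimated robustly, where the limma adjusted p was 0.155 for Il1a and 0.207 for Il1b.

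IL-1α changed little of this in M1. None of the 8 genes at the floor in M1 differed by 2-fold between vehicle and IL-1α, and 0% of the 10012 genes tested did. The differences ran from -0.15 for Myd88 to 0.26 for Il1b, beside a standard deviation of 0.11 over all genes. Il1b and Il1a (0.23) lay toward the top of the distribution, at ranks 110 and 171 from the top. Irak2 was at 0.10, Il18bp at 0.11, Il1rap at 0.02, Il1rn at -0.03 and Il18 at -0.05. No replicate stands behind any of these differences.

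In M2 the same treatment separated the IL-1 ligand genes from the rest of the family. Il1b was higher with IL-1α by 2.56 (5.90-fold) and Il1a by 1.96 (3.89-fold). They were the only 2 of 9 genes past 2-fold, where 0.35% of the 10284 genes tested were higher and none were lower. As read, Il1b ranked 4 and Il1a ranked 9 from the top of all genes tested. Both started under the floor, and with those readings raised to it the differences were 1.79 (3.46-fold) and 1.26 (2.40-fold).

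The other 7 genes stayed within 2-fold in M2. Il1rap was at 0.44 (1.36-fold) and Irak2 at 0.42 (1.34-fold), ranks 182 and 212 from the top. Il1rl2 was at 0.23, Myd88 at 0.19, Il1rn at 0.09, Il18 at 0.08 and Il18bp at -0.05. All differences in M2 had a median of 0.05 and a standard deviation of 0.18 over genes. The antagonist gene Il1rn stayed close to its vehicle reading in both phenotypes, whereas Il1a and Il1b stayed within 2-fold only in M1.

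**Figure D2:**
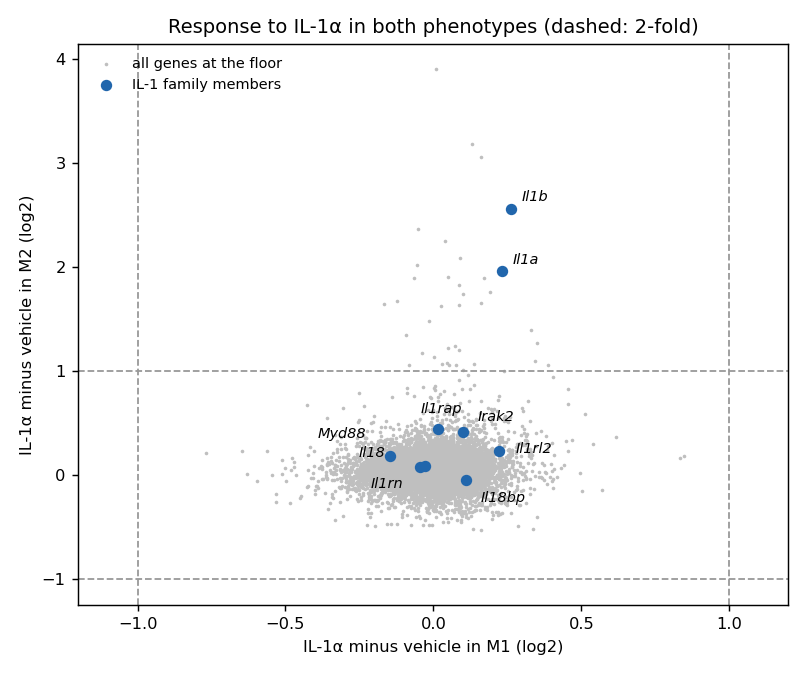
IL-1α minus vehicle in M1 (horizontal) and in M2 (vertical), in log2 units, for all 10625 genes at the floor on at least 1 array (small points) and the 9 IL-1 family genes at the floor (large points), with 2-fold differences dashed. Il1b and Il1a lie at 2.56 and 1.96 in M2 and at 0.26 and 0.23 in M1, the other 7 lie within 2-fold on both axes, and the M1 value of Il1rl2 comes from readings under the floor.

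The study asked whether M1 and M2 respond differently to IL-1α. The M2 response minus the M1 response was 2.30 (4.93-fold) for Il1b and 1.73 (3.31-fold) for Il1a as read. Both rest on M2 vehicle readings under the floor, and with these raised to it the values were 1.53 (2.89-fold) and 1.03 (2.04-fold), the latter barely past the rule. Of the 10625 genes tested, 0.32% had a difference of at least 1. Of the remaining members, Il1rap (0.43), Myd88 (0.33) and Irak2 (0.32) were above 0, as were Il18 (0.12), Il1rn (0.12) and Il1rl2 (0.01, or 0.23 with its M1 readings raised to the floor), and Il18bp was at -0.16. This difference has no test, since estimating it uses up all 4 arrays. For the average response to IL-1α over M1 and M2, limma called none of the 9 genes and 0% of all genes. The fit takes its residual from the response difference, so a change in M2 alone widens the SE along with the effect. The averages were 1.41 ± 0.35 (SE) for Il1b and 1.10 ± 0.27 for Il1a. Such a pattern could hardly be called, so the lack of calls says little about these genes. At an unadjusted p under 0.05 there were 3 of the 9 genes and 646 of all 10625, and the smallest limma adjusted p among the 9 was 0.473.

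With IL-1α on both sides, the gaps between the phenotypes were narrower for Il1a and Il1b. How far a gap moved is the response difference given above, seen from the other side, since the comparisons share the same 4 arrays. Again 6 of the 9 genes were called lower in M2 and 2 higher, beside 6.06% and 8.15% of the 10479 genes tested. The gap of Il1b was -2.59 (6.01-fold), against -4.89 with vehicle, and that of Il1a was -2.89 (7.40-fold), against -4.61. With the vehicle readings raised to the floor the vehicle gaps were -4.12 and -3.92, so the narrowing was 1.53 and 1.03 rather than 2.30 and 1.73. For Il18bp it was -3.05, for Il1rn -2.39, for Il18 -2.14, for Irak2 -1.35 and for Myd88 -0.57. Il1rap was at 1.61 (3.05-fold). Il1rl2 was at 3.20 as read, against an M1 reading under the floor, and at 1.63 (3.09-fold) with that reading raised to it. Even with IL-1α, Il1b in M2 (9.41) was below its M1 reading with vehicle (11.73), and the same held for Il1a (8.88 and 11.54).

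**Figure D3:**
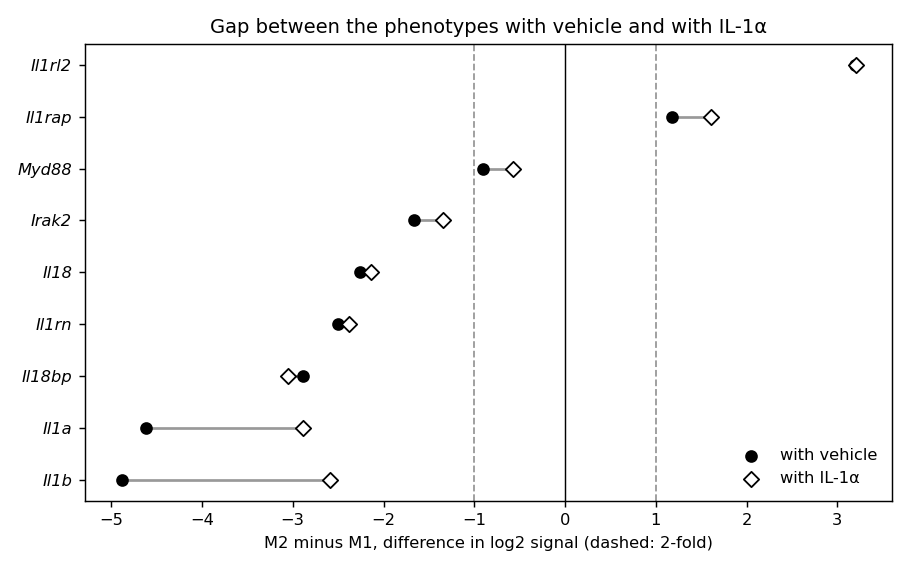
M2 minus M1 in log2 signal for the 9 genes at the floor, with vehicle (filled circles) and with IL-1α (open diamonds), 1 array on each side and 2-fold dashed. The markers of Il1b and Il1a lie far apart (-4.89 and -2.59, -4.61 and -2.89), with the vehicle gaps at -4.12 and -3.92 once readings under the floor are raised to it, and those of Il1rl2 (3.19 and 3.20) use M1 readings under the floor and become 1.39 and 1.63 with these raised to it.

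Il1a and Il1b lie near each other on chromosome 2 and moved together across the 4 arrays, so the sequence before their starts is shown. The 250 bases before each RefSeq start (GRCm38.p6) were searched on both strands for 7 motifs. These were the interferon-γ-linked GAS site TTCNNNGAA, the interleukin-4-linked STAT6 site TTCNNNNGAA, the ISRE GAAANNGAAA, the AP-1 site TGANTCA, the C/EBP site TTNNGNAA, the PU.1 site GAGGAAGT and the NF-κB consensus. Of all 32851 promoter entries of that length, 7.02%, 5.85%, 2.98%, 6.75%, 36.8%, 2.44% and 3.9% held them, in that order. All 10 genes matched an entry and Il1rn matched 3, which gives 12 windows. Capitals mark the matches, and positions count back from the start, with -1 the base before it. The window of Il1a (chr2:129309973-129310222, minus strand) held a C/EBP match at -43 and an AP-1 match at -12. That of Il1b (chr2:129371140-129371389, minus strand) held a C/EBP match at -91. RefSeq's extent of either gene reaches into its window, so other transcripts may begin there.
Il1a: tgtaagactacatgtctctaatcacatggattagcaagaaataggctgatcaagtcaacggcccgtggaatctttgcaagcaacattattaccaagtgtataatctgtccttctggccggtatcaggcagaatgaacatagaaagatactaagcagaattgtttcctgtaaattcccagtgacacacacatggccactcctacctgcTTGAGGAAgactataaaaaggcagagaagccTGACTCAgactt
Il1b: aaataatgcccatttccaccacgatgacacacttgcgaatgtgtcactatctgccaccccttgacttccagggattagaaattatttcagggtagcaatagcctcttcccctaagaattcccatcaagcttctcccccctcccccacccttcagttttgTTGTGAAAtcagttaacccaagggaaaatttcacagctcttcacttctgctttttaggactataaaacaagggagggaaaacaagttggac

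Beyond these, the receptor gene Il1rl2 is shown because it had the largest difference toward M2, and the adaptor gene Myd88 because it alone held the ISRE. The window of Il1rl2 (chr1:40324339-40324588, plus strand) held 4 C/EBP matches, at -192, -144, -124 and -120, of which the last 2 overlap. The window of Myd88 (chr9:119340019-119340268, minus strand) held a GAS match at -46 and an ISRE match at -40, which overlap by 3 bases.
Il1rl2: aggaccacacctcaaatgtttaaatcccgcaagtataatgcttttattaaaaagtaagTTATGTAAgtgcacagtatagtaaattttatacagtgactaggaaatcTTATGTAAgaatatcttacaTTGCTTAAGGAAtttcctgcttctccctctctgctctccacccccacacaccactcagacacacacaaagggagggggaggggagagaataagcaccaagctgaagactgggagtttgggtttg
Myd88: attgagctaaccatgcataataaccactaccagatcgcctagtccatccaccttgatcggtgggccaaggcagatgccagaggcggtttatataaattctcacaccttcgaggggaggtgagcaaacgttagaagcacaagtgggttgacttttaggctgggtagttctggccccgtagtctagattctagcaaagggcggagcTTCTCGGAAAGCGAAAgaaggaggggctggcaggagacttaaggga

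A GAS match lay before 2 of the 10 genes (Myd88 and Il1r2), a STAT6 match before 2 (Il18 and Il1rn), an AP-1 match before 2 (Il1a and Il1rn) and a C/EBP match before 5. These counts are per gene, whereas the shares over all promoters are per entry, 36.8% for C/EBP. Il1rn had 3 windows, with the AP-1 match in window 1 and the same STAT6 site in windows 2 and 3, which overlap. The windows of Il1rap and Irak2 held none of the 7. The letters of the NF-κB consensus and of the PU.1 site were in none of the 12 windows. A match or its absence describes these letters in this window and says nothing of binding.

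**Figure D4:**
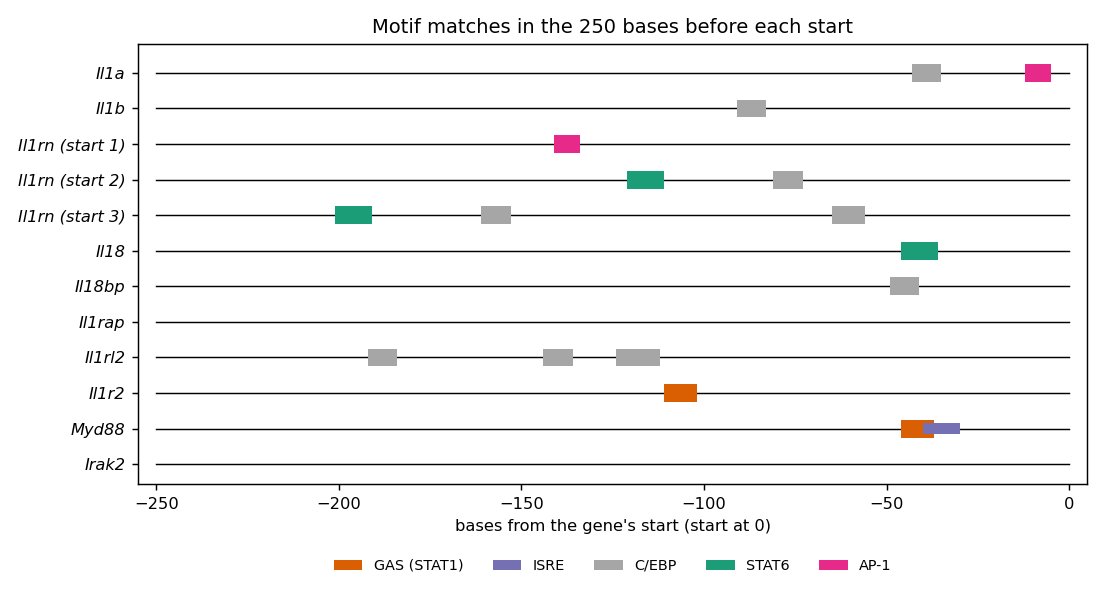
Positions of motif matches in the 250 bases before each RefSeq start of the 10 genes, in bases from the start, with 3 starts for Il1rn. Il1a and Il1b share only the C/EBP letters, at -43 and -91, and the Myd88 GAS and ISRE matches overlap.

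The profiles of the members were then compared with all other genes, as the distance between the 4 log2 values after centring each gene on its mean. Over 10106 genes, Il1b was the gene nearest to Il1a and Il1a the gene nearest to Il1b, at a distance of 0.43. The next nearest to Il1a were Traf1 (0.75) and Kynu (0.80), and to Il1b Gpr84 (0.88) and Clec4e (0.89). Il1rn lay nearest to Stx2, Vrk2 and Parp11, Il18 to Pilrb2, Mxd1 and H2-Q5, Il18bp to Nlrc5, H2-T24 and Ifi209, and Irak2 to Esr1, Traf2 and Il10. Il1rap lay nearest to Itgb8, Abca9 and Cdkl2, and Il1rl2 to Cnrip1, Ccnb2 and Bhlhe40. Among the members themselves, Il18 and Il1rn were 0.25 apart. These distances rest on 4 arrays, and ranking by Pearson's r in their place kept 1 of the 24 genes (by r, Il1b ranked 190 for Il1a). Il1a, Il1b, Traf1, Kynu, Gpr84 and Clec4e were all under the floor in M2 with vehicle, and Kynu in M2 with IL-1α as well. Of the other neighbours named, Pilrb2 and Il10 were under it on both M2 arrays, and Esr1 in M2 with vehicle. Abca9, Cdkl2 and Ccnb2 were under it on both M1 arrays, and Itgb8 in M1 with IL-1α. With readings under the floor raised to it, 11 of the 24 genes were kept, none of them for Il1rl2. Il1a and Il1b were again nearest to each other, at 0.38.

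The rest of the IL-1 pathway was read from lists, which were also chosen with earlier results of these data known. Of 13 other IL-1 family ligands and receptors, 7 were measured and only Sigirr, which encodes an inhibitory receptor of the family, reached the floor. It read between 7.81 and 8.07 on the 4 arrays. The ligand gene Il33 (5.37 to 5.79) and the IL-18 receptor gene Il18r1 (5.09 to 5.23) were under the floor on all 4 arrays. The IL-33 receptor gene Il1rl1 and the kinase gene Irak4 were not analysed here.

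Downstream of MyD88, M2 with vehicle was lower by 2-fold in 2 of 19 genes and higher in none, with a median of -0.34. This share is near the 6.83% lower among all genes. The 2 were the ubiquitin ligase gene Peli1 (11.58 in M1 and 9.68 in M2, -1.89) and Irak3, which encodes an inhibitory IRAK (11.34 and 10.09, -1.25). Traf6, the ubiquitin ligase recruited by IRAKs, was at -0.63, and the kinase gene Irak1 at -0.19. In the limma fit, 12 of 20 genes of this list were called lower in M2 and 2 higher, beside 29.3% and 33.2% of all genes. No gene of the list differed by 2-fold with IL-1α in M1 or in M2, and Irak3 was at 0.30 and 0.08.

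Among genes for processing and release of the cytokines, 6 of 13 were called lower in M2 with vehicle and none higher, with a median of -0.75, beside 6.83% lower among all genes. They included the inflammasome sensor Nlrp3 (10.22 and 7.51, -2.72), the inflammatory caspase Casp4 (-2.31), the membrane rupture protein Ninj1 (-1.63) and the IL-1β-cleaving caspase Casp1 (12.16 and 10.71, -1.45). Nlrp3 in M2 with vehicle was under the floor, and so was another of the 6 genes called lower (7.495 in M2 with vehicle, -1.16). With IL-1α in M2, none of the 13 reached 2-fold. Nlrp3 was at 1.00, just short of it before rounding, and Casp4 at 0.83, whereas Casp1 was at 0.18.

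NF-κB and AP-1 factors and feedback genes were 2-fold lower in M2 with vehicle in 7 of 18 cases and higher in none, with a median of -0.79, beside 6.83% lower among all genes. The inhibitors Nfkbia (-2.54) and Nfkbie (-2.47) had the largest differences, followed by Nfkbiz (-1.94) and Tnip1 (-1.69). With IL-1α in M2, 4 of the 18 were at least 2-fold higher, beside 0.35% of all genes, namely Nfkbie (1.82), Nfkbia (1.65), Nfkbiz (1.27) and the ribonuclease gene Zc3h12a (1.10). In M1 these 4 were at 0.09, 0.16, 0.35 and 0.34, and none of the 18 reached 2-fold. Nfkbiz in M2 with vehicle read 7.45, under the floor.

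**Figure D5:**
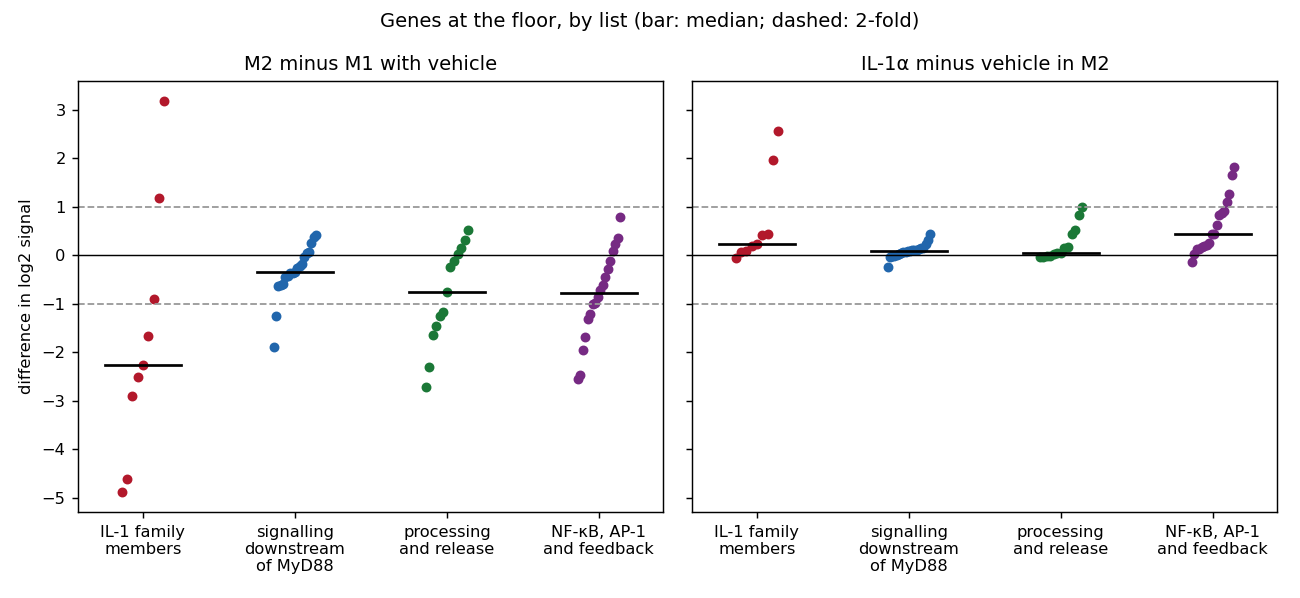
Difference in log2 signal for each gene at the floor among the IL-1 family members and 3 lists, M2 minus M1 with vehicle (left) and IL-1α minus vehicle in M2 (right), with the list median as a bar and 2-fold dashed. On the left the medians are -2.26, -0.34, -0.75 and -0.79, and on the right only Il1a, Il1b and 4 NF-κB feedback genes pass 2-fold.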

How the data were processed

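Total RNA of the 4 groups was read on Affymetrix mouse arrays, and the authors deposited 1 log2 value for each probe set and array. The submitters' processing notes name RMA and Affymetrix Expression Console, while for software version and genome build the sources used here give nothing. The log base was read from the values, whose maximum per array was 14.40 to 14.47. RMA in general brings arrays to a common distribution, which removes global differences and compresses dim ones. With 4 arrays, precision is limited by their number.

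Of 35556 probe sets, 21789 carried 1 gene in GEO's platform annotation. Symbols were updated by Entrez number to RefSeq GRCm38.p6 (21698 matched), and probe sets of a gene were averaged. Differences between arrays carry no p-value. limma 3.58.1 (R 4.3.3; eBayes with a trend, 10.05 prior degrees of freedom) fitted 10625 genes, with a Benjamini-Hochberg threshold of 0.05, and the steps were tested on simulated data.

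Groups came from the source names. The members, lists and tests were chosen with earlier results of these data known. Named genes were all members, list genes past 2-fold (at most 4 per list and comparison), 12 pathway genes picked by role, and the 3 nearest genes per member past 2-fold. Promoter sequences are from RefSeq.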

Additional observations from a re-analysis of the deposited data

Results flagged for a closer look

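In 3 genes at the floor on all 4 arrays, the M1 and M2 arrays moved in opposite directions with IL-1α. The log2 difference of Il1rn was -0.0296 in M1 and 0.0891 in M2. That of Il18bp was 0.1113 in M1 and -0.0482 in M2, and that of Myd88 was -0.1457 in M1 and 0.1873 in M2. With 1 array per group the difference between the phenotypes was not tested. Each value lies within 1.5 standard deviations over all genes of its comparison, which were 0.11 in M1 and 0.18 in M2.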

How the results depend on the processing

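The counts of members called stayed within 1.5 times of those reported under a 1.5-fold threshold, no floor, loess centring, quantile normalisation, use of the brightest probe set, and readings under the floor raised to it (added after seeing the data). With the floor at the 75th percentile (9.63), the dim members were no longer tested. The number higher in M2 became 0 with vehicle, 0 with IL-1α and 0 in the limma fit (2 each before, Il1rap and Il1rl2), and the number higher with IL-1α in M2 became 0 (2 before, Il1a and Il1b). Over all genes, that floor took the number higher in M2 from 737 to 429 with vehicle and from 854 to 533 with IL-1α, the number higher with IL-1α in M2 from 36 to 19, the limma calls higher in M2 from 3526 to 2230, and the limma IL-1α calls from 0 to 1. A 1.5-fold threshold gave 1477 higher and 1400 lower genes with vehicle (737 and 716 before), 1740 and 1197 with IL-1α (854 and 635), 2 and 4 in the M1 response (0 and 0), 90 higher in the M2 response (36), and 108 and 15 in the response difference (34 and 0). Without a floor, 1 gene was lower in the M1 response and 4 in the response difference (0 and 0 before). No called difference changed sign. Of differences of named genes, 11 passed at 1.5-fold only, Myd88 between M2 and M1 with vehicle among them. Robust eBayes ended the phenotype calls of Il1a and Il1b. No paired analysis was possible because each group holds 1 array.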

Other observations

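The 5 soluble members (Il1a, Il1b, Il1rn, Il18 and Il18bp) were grouped after their values were seen. In M2 with vehicle, Il1a, Il1b and Il18 read under the floor, so each value is also given with such readings raised to it. M2 minus M1 with vehicle spanned -4.89 to -2.26, a range of 2.63 log2 units, or -4.12 to -2.23 and a range of 1.89 when raised. With IL-1α on both sides it spanned -3.05 to -2.14, a range of 0.91, with no reading under the floor. The difference of Il1b minus that of its antagonist gene Il1rn was -2.38 with vehicle (-1.61 raised) and -0.20 with IL-1α. For Il1a minus Il1rn it was -2.11 (-1.42 raised) and -0.50. The IL-1α response of Il1b minus that of Il1rn was 2.47 in M2 (1.70 raised) and 0.29 in M1. The difference of Il18 minus that of its binding protein gene Il18bp was 0.63 with vehicle (0.66 raised) and 0.91 with IL-1α. These are differences of changes on single arrays and were not tested.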
